A study of Mus musculus with 8 samples.

Results

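The 31 genes described here mark excitatory projection neurons of the cerebral cortex. They were listed by name, as genes known from those neurons. Earlier results of these data were known when the list was made. All 31 were among the 54307 gene identifiers of the deposited table, and all 31 passed the filter on low counts that left 17669 genes for testing. Of the 31, 8 (*Slc17a7*, *Neurod2*, *Emx1*, *Camk2a*, *Sv2b*, *Cck*, *Dkk3* and *Mpped1*) also stand in the table of differentially expressed genes that the study drew from these same mice, so their direction is not independent evidence.

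The tissue was the periventricular area around the lateral ventricle of 1 hemisphere, which holds the ventricular-subventricular zone (V-SVZ), a niche of adult neural stem cells, and polyA RNA was sequenced in bulk from 8 mice of 8 weeks of age. The 4 *Lrig1* KO mice (2 female, 2 male) were homozygous for a CreERT2 cassette knocked into exon 1 of *Lrig1*, a constitutive knockout that is not limited to a cell type, and the 4 WT mice (3 female, 1 male) were littermates with the wild-type allele, all on a 129-Elite background. Gene counts summed to between 47887437 and 74482334 per mouse. *Lrig1* itself lay between 13.5 and 45.6 CPM (counts relative to the size of the library, scaled by the TMM method) in WT and between 1.17 and 4.15 CPM in KO, without overlap, with WT replicate 2 the lowest of the WT mice.

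Projection neurons of the cortex use glutamate, arise from progenitors of the dorsal forebrain and send axons to other cortical areas or to deeper targets. Upper layer neurons project mainly within the cortex, and deep layer neurons mainly to the thalamus, brainstem and spinal cord. The cortex lies above the corpus callosum and the ventricle, and the striatum, whose projection neurons use GABA, borders the lateral wall, so bulk tissue taken around the ventricle can hold RNA of either. Several of the 31 genes are not restricted to the cortex: *Camk2a*, *Ddn*, *Chn1*, *Baiap2*, *Ptk2b* and *Itpka* are also used by striatal neurons. In bulk tissue, fewer cells of a type and less RNA per cell cannot be told apart.

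The genes varied between mice far more widely in some cases than in others, and the promoters of the 3 with the widest and the 2 with the narrowest range (among the 15 genes with exactly 1 promoter in the table) are shown because 3 of the 31 genes encode factors of the NeuroD family, basic helix-loop-helix proteins that bind E-boxes. Each sequence runs from 250 bases before to 50 bases after the RefSeq start in GRCm38.p6, 5′ to 3′, and capitals mark E-boxes, written CANNTG, a motif that reads the same way on both strands.
*Neurod6*, chr6:55681214-55681513 on the minus strand: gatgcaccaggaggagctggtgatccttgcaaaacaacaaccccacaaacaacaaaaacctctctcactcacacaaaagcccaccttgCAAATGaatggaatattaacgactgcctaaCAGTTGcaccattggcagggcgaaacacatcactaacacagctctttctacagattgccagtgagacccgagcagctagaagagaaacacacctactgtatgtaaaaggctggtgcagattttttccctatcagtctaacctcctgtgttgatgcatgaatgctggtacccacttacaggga
*Slc17a7*, chr7:45163671-45163970 on the plus strand: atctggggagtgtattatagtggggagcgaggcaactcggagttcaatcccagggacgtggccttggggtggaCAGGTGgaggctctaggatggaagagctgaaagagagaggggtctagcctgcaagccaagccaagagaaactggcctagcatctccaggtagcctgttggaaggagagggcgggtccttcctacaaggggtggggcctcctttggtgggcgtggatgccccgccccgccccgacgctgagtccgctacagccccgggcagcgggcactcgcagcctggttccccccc
*Neurod2*, chr11:98329596-98329895 on the minus strand: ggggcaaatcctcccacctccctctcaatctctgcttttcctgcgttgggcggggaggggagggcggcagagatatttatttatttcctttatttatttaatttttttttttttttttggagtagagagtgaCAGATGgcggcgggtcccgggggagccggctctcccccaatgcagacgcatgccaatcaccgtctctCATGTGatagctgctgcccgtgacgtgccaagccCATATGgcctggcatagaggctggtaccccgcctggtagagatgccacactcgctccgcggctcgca
*Hs3st4*, chr7:123982578-123982877 on the plus strand: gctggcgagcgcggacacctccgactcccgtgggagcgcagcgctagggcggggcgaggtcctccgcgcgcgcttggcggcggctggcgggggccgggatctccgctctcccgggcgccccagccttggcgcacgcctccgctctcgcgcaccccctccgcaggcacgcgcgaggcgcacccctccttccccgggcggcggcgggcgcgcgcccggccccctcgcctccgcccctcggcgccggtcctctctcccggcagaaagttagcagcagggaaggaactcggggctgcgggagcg
*Cux1*, chr5:136565932-136566231 on the minus strand: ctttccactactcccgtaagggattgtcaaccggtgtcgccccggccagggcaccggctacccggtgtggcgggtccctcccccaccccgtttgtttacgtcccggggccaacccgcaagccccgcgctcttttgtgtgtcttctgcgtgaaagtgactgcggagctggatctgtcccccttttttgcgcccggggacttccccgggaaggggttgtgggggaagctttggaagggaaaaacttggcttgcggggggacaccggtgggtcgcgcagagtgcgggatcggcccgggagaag

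The 3 promoters of the widely varying genes held 2, 1 and 3 E-boxes, and the 2 promoters of the genes with little variation held 0. Over all 36 promoters listed for the 24 members with an entry, however, 25 (69.4%) held CANNTG, against 72.3% of all 32851 promoters of the same length. The form CAGATG or its reverse complement, which NeuroD factors are known to favour and which is contained in CANNTG, stood in 6 of the 36 (16.7%) and in 17.2% of all. In these windows the motif was thus no more frequent in the members than in promoters at large.

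The ratio of the highest to the lowest mouse divided the genes. It exceeded 10 in 9 genes, lay between 2 and 10 in 14 and was under 2 in 8. The 9 were *Neurod6* (269.7-fold), *Slc17a7* (249-fold), *Neurod2* (158-fold), *Neurod1* (75.7-fold), *Slc30a3* (71.3-fold), *Emx1* (50.5-fold), *Cck* (36.2-fold), *Tbr1* (24.5-fold) and *Bhlhe22* (24.1-fold). The 8 were *Chn1*, *Baiap2*, *Itpka*, *Ptk2b*, *Ddn*, *Hs3st4*, *Tle4* and *Cux1*, from 1.86-fold down to 1.16-fold. WT replicate 2, the only WT male, was the highest mouse in 24 of the 31 genes, and KO replicate 3, a male, was the second highest in 21. The lowest mouse was KO replicate 4 in 13 genes and KO replicate 2 in 11, both female.

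**Figure D1:**
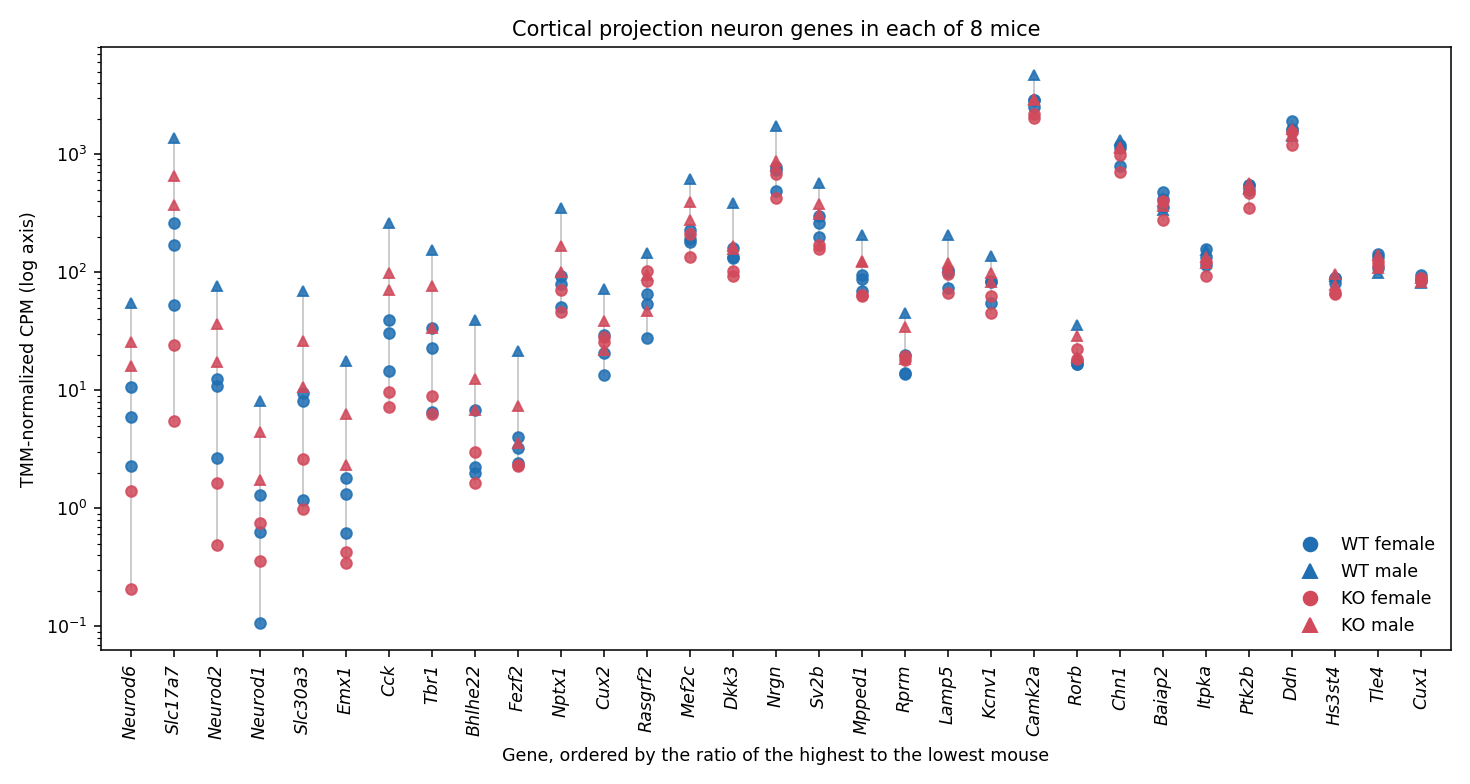
TMM-normalized CPM (log axis) of each of the 31 genes in each mouse, with genes ordered by the ratio of the highest to the lowest mouse, blue for WT, red for KO, circles for females and triangles for males. At the left, *Neurod6* and *Slc17a7* spread over 269.7-fold and 249-fold with the WT male on top, and at the right *Cux1* lies between 80.7 and 93.7 CPM in all 8 mice.

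Levels can be compared between genes only per transcript length, as TPM (estimated transcripts relative to all transcripts of a library). On that scale the median over the 8 mice was highest for *Nrgn* (771 TPM), *Chn1* (729), *Camk2a* (700.5) and *Ddn* (582), and lowest for *Bhlhe22* (1.89 TPM), *Emx1* (1.77) and *Neurod1* (0.585). *Slc17a7* had a median of 109 TPM and ran from 2.73 to 755 TPM. Transcription factors were thus mostly at the low end and dendritic proteins at the high end. Neighbours in this order had overlapping ranges over the mice, except *Ddn* and *Ptk2b*.

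*Slc17a7* (ENSMUSG00000070570.6) encodes VGLUT1, the transporter that loads glutamate into synaptic vesicles of cortical neurons. Its level was 260.4, 1356, 52.7 and 171 CPM in WT replicates 1 to 4 and 368, 24.2, 648 and 5.45 CPM in KO replicates 1 to 4. The groups overlapped between 52.7 and 648 CPM, with a WT mouse highest and a KO mouse lowest. The log2 fold change in KO was -0.81 (SE 1.35), and its p in edgeR's quasi-likelihood test was 0.9998 after adjustment by the method of Benjamini and Hochberg. On log2 CPM, the difference was -1.66 and the exact two-sided permutation test over the 70 groupings of 4 and 4 gave p = 0.429. Its reads came mostly from 1 transcript form, which held at least 99.28% of its TPM in every mouse.

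The transcription factors that specify these neurons had a similar order of mice. *Neurod6*, a NeuroD factor kept in mature projection neurons, had 10.6, 55.3, 2.26 and 5.89 CPM in WT and 16.2, 1.39, 25.7 and 0.205 CPM in KO. *Neurod2*, its relative that acts in synapse formation, had 12.4, 77.0, 2.69 and 10.7 CPM in WT and 17.3, 1.64, 36.5 and 0.489 CPM in KO. In both, WT replicate 2 was on top, followed by the male KO mice (KO replicates 3 and 1), and KO replicate 4 was at the bottom. *Neurod1*, which drives neuronal differentiation, was low, with 0.630, 8.07, 0.107 and 1.28 CPM in WT and 1.72, 0.355, 4.45 and 0.757 CPM in KO, and its lowest mouse was WT replicate 3. *Emx1*, a homeobox factor of the dorsal forebrain, had 1.80, 17.5, 0.618 and 1.33 CPM in WT and 2.34, 0.423, 6.30 and 0.347 CPM in KO. Both females among the KO mice lay below the 3 WT females for *Emx1*, *Neurod2* and *Neurod6*, but not for *Neurod1*, and the male KO mice lay above those females.

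*Bhlhe22*, a helix-loop-helix factor of cortical area identity, had 2.23, 39.1, 2.003 and 6.81 CPM in WT and 6.84, 2.996, 12.4 and 1.62 CPM in KO. *Mef2c*, an activity-dependent factor, had 228, 611, 189.9 and 180.3 CPM in WT and 276, 136, 396 and 211 CPM in KO. In both genes the 3 males were the 3 highest mice and the genotypes overlapped. Over the 12 transcription regulators among the 31 genes, 11 had a negative log2 fold change in KO, their median was -0.62, and 0 passed the test.

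Genes of synaptic vesicles and secreted products had the most negative median of the groups by role. *Slc30a3*, the transporter that fills glutamate vesicles with zinc, had 8.11, 69.7, 1.17 and 9.54 CPM in WT and 10.6, 2.61, 26.0 and 0.977 CPM in KO. *Cck*, the neuropeptide cholecystokinin, had 39.2, 259, 14.5 and 30.3 CPM in WT and 70.4, 9.73, 97.4 and 7.17 CPM in KO. For *Cck* the KO females lay below every WT mouse and the KO males above every WT female, so each sex on its own had its KO mice below its WT mice. *Nptx1*, a secreted pentraxin that gathers AMPA receptors, had 92.5, 347, 51.0 and 78.8 CPM in WT and 99.5, 70.0, 167 and 46.2 CPM in KO. *Dkk3*, a secreted glycoprotein of the Dickkopf family, had 131, 386, 159 and 133 CPM in WT and 156, 103, 166 and 92.3 CPM in KO. WT replicate 2 stood far above the other WT mice for each of these 4 genes. *Sv2b*, a synaptic vesicle glycoprotein, ran from 158 to 564 CPM. All 6 genes of this group had a negative log2 fold change in KO, from -1.14 (*Slc30a3*) to -0.39 (*Sv2b*), with a median of -0.73, and 0 passed the test.

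Postsynaptic and dendritic genes were high and varied less. *Camk2a*, the alpha subunit of the calcium/calmodulin-dependent kinase II of the synapse, had 2520.0, 4694, 2847 and 2844 CPM in WT and 2913, 2035, 2844 and 2184 CPM in KO. *Nrgn*, neurogranin, which binds calmodulin in dendritic spines, had 738, 1726, 775 and 490.3 CPM in WT and 787, 423, 870.2 and 675 CPM in KO. WT replicate 2 was alone at the top for both, and the other 7 mice overlapped. *Chn1* (a Rac GTPase-activating protein), *Baiap2* (a scaffold of the spine actin), *Itpka* (an inositol trisphosphate kinase), *Ptk2b* (a calcium-dependent tyrosine kinase) and *Ddn* (dendrin) each stayed within 1.86-fold over the 8 mice, with *Ddn* between 1188 and 1897 CPM. The 9 genes of this group, which also holds *Lamp5* and *Rasgrf2*, had a median log2 fold change of -0.17, 8 were negative and 0 passed the test. *Mpped1*, a metallophosphoesterase domain gene, ran from 62.5 to 206 CPM, and *Kcnv1*, a silent subunit of voltage-gated potassium channels, from 45.0 to 137 CPM.

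For KO against WT, the number of the 31 genes that passed an adjusted p of 0.1 was 0 in edgeR (quasi-likelihood test, Benjamini-Hochberg), where 0.00566% of all genes tested (1 of 17669) passed. At an unadjusted p under 0.05 the count was also 0, and DESeq2 without covariates, which gave a value for 30 of the 31, found 0 under either threshold. The signs were uneven: 29 log2 fold changes were negative and 2 positive (*Rorb* and *Rasgrf2*). Their median was -0.32, against -0.00094 over all genes tested, and -0.25 over the 23 genes outside the study's table. All 4 KO mice lay below all 4 WT mice in 0 of the 31 genes, against 0.877% of all genes. *Lrig1* itself met this rule, yet it did not pass the adjusted threshold in edgeR either. Without WT replicate 2, which left a WT group of females only, the median was 0.27, with 12 negative and 19 positive. With sex as a covariate the same omission, which left only females to compare the genotypes, gave 27 negative and a median of -0.37.

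Sex was uneven between the genotypes, so the comparison was also made with sex as a covariate. The median log2 fold change in KO was then -0.51, 28 of the 31 were negative, and 19 had an unadjusted p under 0.05, all 19 negative, where 4.01% of all genes were negative at that threshold. None passed the adjusted threshold in edgeR (0 of 31, background 0.0113%), and the lowest adjusted p among them was 0.555. The largest were *Slc17a7* at -2.77 (SE 0.76), *Neurod2* at -2.42 (SE 0.63), *Neurod6* at -2.34 (SE 0.68), *Slc30a3* at -1.86 (SE 0.62) and *Emx1* at -1.84 (SE 0.40) on the log2 scale. DESeq2 with sex as a covariate, a fit chosen after the values had been seen, called 8 genes lower, against 0.687% of its genes, and these were the 8 genes of the study's table. The same fit called 2 genes of the further cortical list lower (*Cplx3* and *Stx1a*). It called 1 choroid plexus gene (*Clic6*) and 2 septal and hypothalamic genes (*Nts* and *Lhx8*) higher, where 79 of its 17765 genes were called higher. All of these were named after their values were seen. Without WT replicate 3, edgeR with sex called 1 of the 31 genes, *Cck*, as lower, where 2 of all 17979 genes tested were called lower. Leaving out each mouse in turn, the median with sex stayed between -0.66 and -0.37.

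Within each sex the comparison was small. Both KO females lay below all 3 WT females for 13 of the 31 genes, against 11.8% of all genes tested. Both KO males lay below the single WT male for 25, against 34.6%. Both were met by 10 genes, against 4.83% of all genes. Those 10 were *Slc17a7*, *Neurod2*, *Neurod6*, *Emx1*, *Fezf2*, *Camk2a*, *Sv2b*, *Cck*, *Dkk3* and *Mpped1*, of which *Neurod6* and *Fezf2* are outside the study's table. In the females alone, 0 genes passed the adjusted threshold in edgeR and 12 had an unadjusted p under 0.05, against 5.31% of all genes, with a median log2 fold change of -0.37 over the 31. Of the 12, 11 were lower in KO and 1, *Rasgrf2*, was higher, and 2.85% of all genes were lower at that threshold. Whether the KO difference depended on sex was tested by an interaction term, which 0 of the 31 passed, with 5 at an unadjusted p under 0.05 (7.48% of all genes) and a lowest adjusted p of 0.621 (edgeR with Benjamini-Hochberg adjustment).

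Males and females were then compared in the same fit, with genotype as a term, a comparison added after the values had been seen. Of the 31 genes, 19 were higher in the 3 males at an adjusted p under 0.1 (edgeR with Benjamini-Hochberg adjustment), where 2.87% of all genes were. The median log2 fold change, male over female, was 0.95 for the 31 genes and -0.0028 for all genes tested. *Cck* was higher by 3.27 (SE 0.29) with an adjusted p of 0.00651 (edgeR), and *Emx1* by 3.64 (SE 0.40) with an adjusted p of 0.0111 (edgeR). *Mpped1* was higher by 1.11 (SE 0.12) with an adjusted p of 0.00971 (edgeR), and *Slc17a7* by 4.33 (SE 0.76) with an adjusted p of 0.0411 (edgeR). All 6 vesicle and secreted genes were among the 19, as were 8 of the 12 transcription regulators, 3 of the 9 postsynaptic genes (*Camk2a*, *Nrgn* and *Lamp5*), and *Mpped1* and *Kcnv1*.

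The 3 males lay above all 5 females in 14 of the 31 genes, against 4.70% of all genes. For *Slc17a7* the difference on log2 CPM was 3.78, and the exact two-sided permutation test gave p = 0.0357, the smallest that 56 groupings of 3 and 5 can give. The count of 19 depended on single mice and on the fit. It was 0 without WT replicate 2, where 7 of all 17872 genes tested were called higher in males. The count was 5 without KO replicate 3, where 50 of all 17860 genes were. When the genotype term was left out, it was 0. Without WT replicate 2, the median remained at 0.71 and 19 genes had an unadjusted p under 0.05, all higher in males. Of all 17872 genes, 661 were higher in males at that threshold. With 1 WT male, a difference between sexes and a property of that library cannot be told apart within WT.

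**Figure D2:**
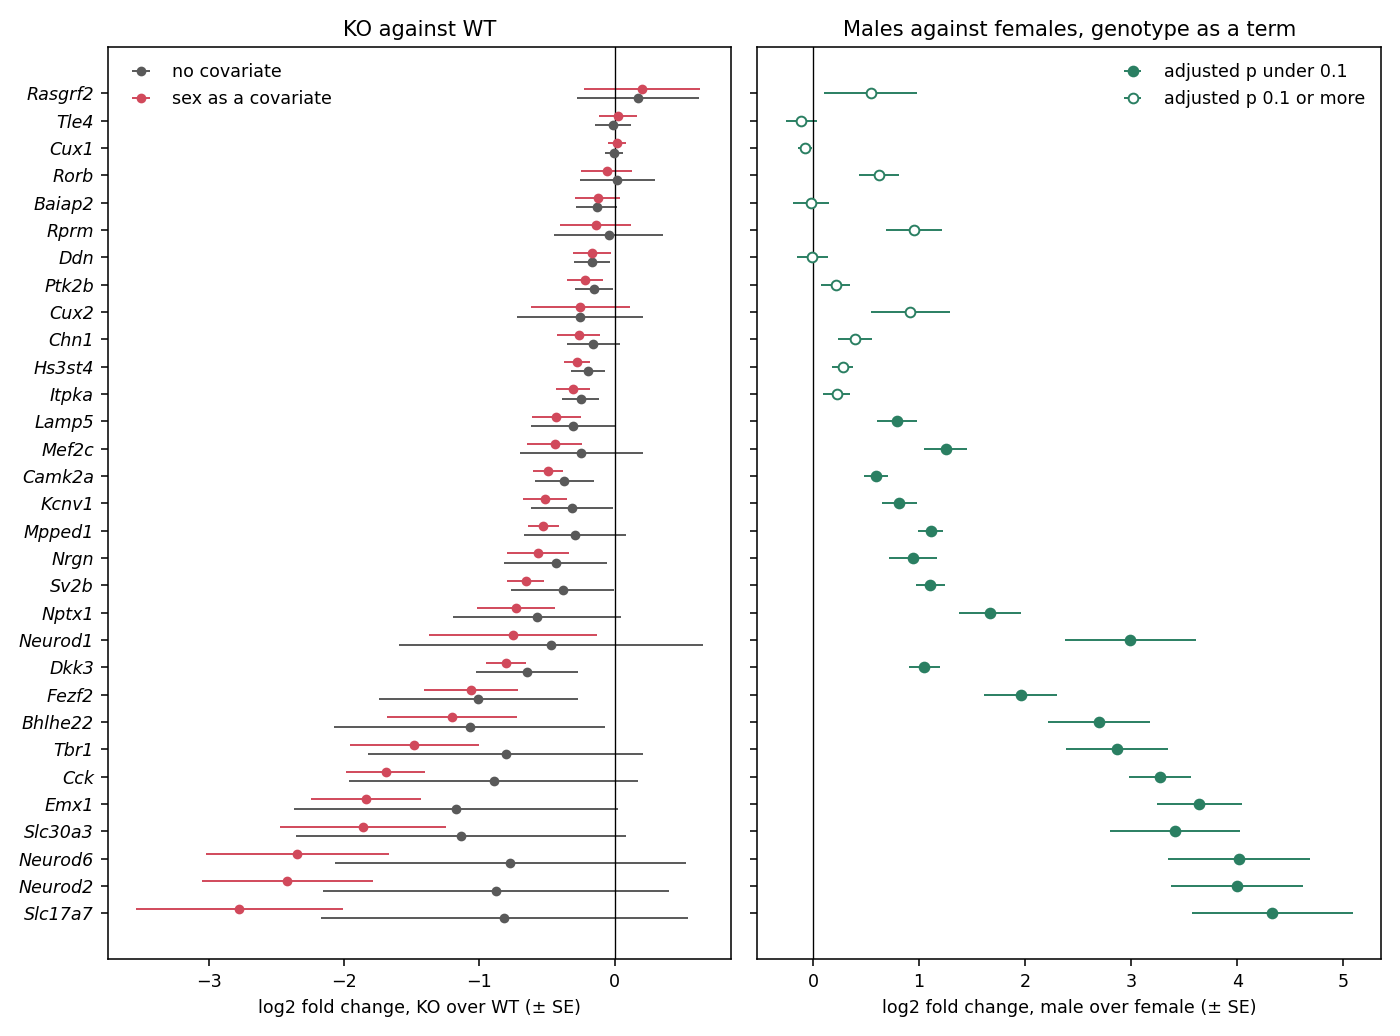
Left, log2 fold change in KO over WT (± SE) for each gene without a covariate (grey) and with sex as a covariate (red); right, log2 fold change of males over females (± SE) with genotype as a term, filled where the adjusted p was under 0.1. The covariate moved *Slc17a7* from -0.81 to -2.77 and narrowed its error, and the 5 genes at the foot of the left panel have the 5 largest values at the right.

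Upper and deep layer genes were set against each other to see whether the neurons of 1 depth varied more. The upper layer genes began with *Cux1*, a homeobox factor found also in many other cells, which had 84.8, 80.7, 88.3 and 93.7 CPM in WT and 82.4, 86.5, 88.8 and 88.6 CPM in KO. *Cux2*, its relative in neurons of the upper layers, had 20.5, 72.5, 13.3 and 29.3 CPM in WT and 21.7, 25.6, 38.3 and 28.1 CPM in KO. *Rorb*, a nuclear receptor of layer 4, had 16.8, 36.0, 17.5 and 16.5 CPM in WT and 19.1, 22.1, 28.6 and 18.2 CPM in KO. *Cux1* was flat, while *Cux2* and *Rorb* had 1 high mouse, WT replicate 2, followed by KO replicate 3. *Lamp5*, a membrane protein of upper layer and some inhibitory neurons, had 101, 207, 104 and 73.1 CPM in WT and 119, 66.3, 110.0 and 96.6 CPM in KO. *Rasgrf2*, a Ras exchange factor, had 53.6, 145, 27.9 and 64.8 CPM in WT and 47.2, 102, 95.3 and 83.8 CPM in KO. For *Rasgrf2* the second highest mouse was KO replicate 2, a mouse near the bottom for most other genes.

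Among the deep layer genes, *Tbr1*, the T-box factor of layer 6, had 33.9, 155, 6.48 and 22.8 CPM in WT and 33.6, 8.85, 76.2 and 6.34 CPM in KO. *Fezf2*, the zinc finger factor that specifies layer 5 neurons with subcortical axons, had 3.22, 21.5, 2.43 and 3.98 CPM in WT and 3.57, 2.32, 7.34 and 2.27 CPM in KO. In both genes the order of mice was close to that of *Slc17a7*. *Rprm*, a p53 target used as a layer 6 marker, had 20.0, 45.3, 13.8 and 13.9 CPM in WT and 18.2, 18.0, 34.4 and 19.6 CPM in KO. *Tle4*, a corepressor of layer 6 that striatal neurons also express, had 135, 98.4, 143 and 108 CPM in WT and 139, 112, 108 and 122 CPM in KO. *Hs3st4*, a heparan sulfate sulfotransferase, had 89.7, 92.4, 88.4 and 80.2 CPM in WT and 96.4, 65.9, 78.2 and 65.6 CPM in KO. *Tle4* and *Hs3st4* were flat beside *Tbr1* and *Fezf2*, and WT replicate 2 was the lowest mouse for *Tle4*.

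The mean log2 CPM of the 5 deep layer genes spanned 1.85 over the 8 mice and that of the 5 upper layer genes 1.34. Their difference, upper minus deep, was 0.51, 0.44, 0.89 and 0.86 in WT replicates 1 to 4 and 0.54, 1.38, 0.53 and 1.46 in KO replicates 1 to 4. WT averaged 0.67 ± 0.23 (SD, n = 4), KO averaged 0.98 ± 0.51 (SD, n = 4), and the difference of 0.30 was smaller than the pooled SD of 0.40. The KO females had the 2 highest values, above every other mouse, and the 3 males lay between 0.44 and 0.54. In the females alone the KO mice, at 1.38 and 1.46, lay above the 3 WT mice, at 0.51, 0.89 and 0.86, a difference of 0.67. The median log2 fold change in KO was -0.0045 for the upper and -0.20 for the deep layer genes, and 0 of either list passed the test.

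**Figure D3:**
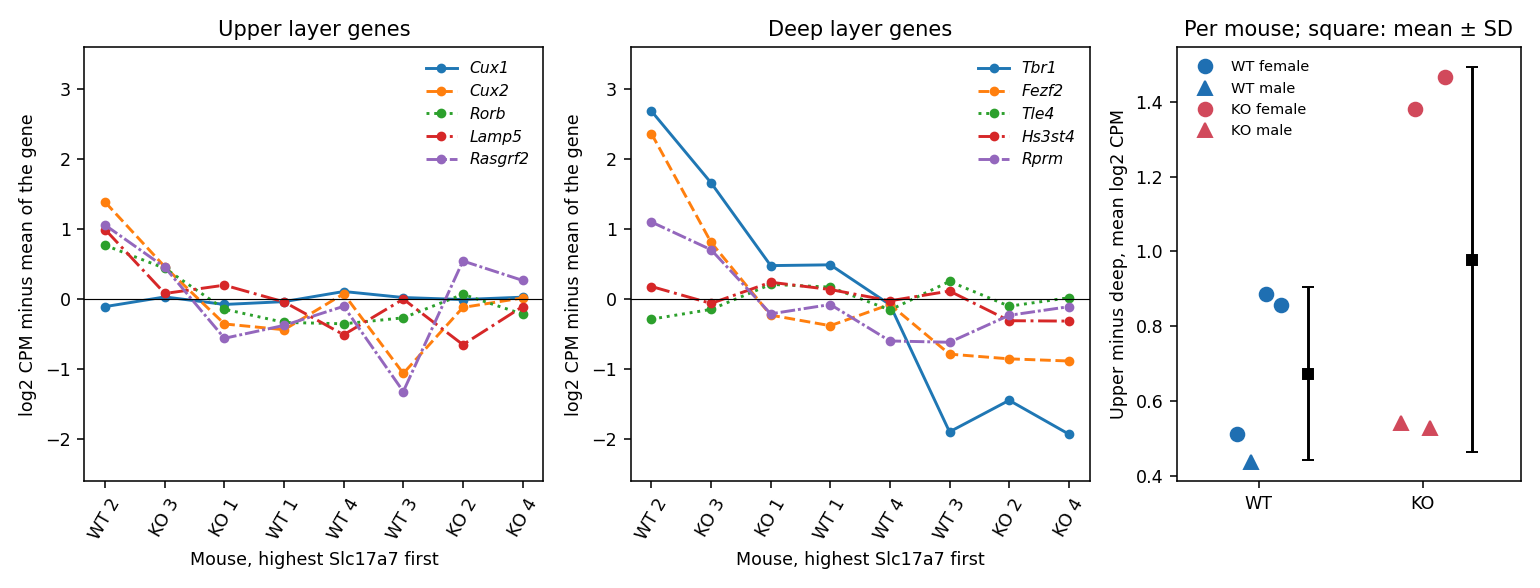
Log2 CPM minus the mean of the gene for 5 upper layer genes (left) and 5 deep layer genes (middle) in each mouse, with mice ordered by *Slc17a7*, and, right, the mean of the upper minus that of the deep layer genes per mouse with the mean ± SD (n = 4) as a square. *Tbr1* and *Fezf2* lie lower along the order of mice while *Cux1*, *Tle4* and *Hs3st4* stay near 0, and the 2 KO females lie above all other mice at the right.

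How closely the genes followed each other over the 8 mice was measured by the correlation of log2 CPM with *Slc17a7*, with exact permutation tests over the 40320 orders of the mice. Of the 30 other genes, 27 had a positive r, with a median r of 0.74 over the 30. A positive r with an unadjusted exact permutation p under 0.05 was found for 16, against 6.96% of 17615 genes. Adjusted over all those genes (Benjamini-Hochberg), 2 of the 30 passed 0.1, *Neurod6* and *Neurod2*, against 0.0341%. The counts of genes that passed given next are adjusted over the 30 alone, where 17 passed an adjusted p of 0.1. The tightest were *Neurod6* (r = 0.997, rho = 1, exact permutation p = 2.48e-05 and 4.96e-05, the first being the smallest the test can give) and *Neurod2* (r = 0.996, rho = 1, with the same exact permutation p values). *Cck* (r = 0.962), *Slc30a3* (0.931), *Emx1* (0.931) and *Tbr1* (0.930) followed. Without the 2 mice farthest from the median of *Slc17a7* (KO replicates 2 and 4), r was 0.997 for *Neurod6*, 0.995 for *Neurod2* and 0.984 for *Cck*. The relation of *Hs3st4* (r = 0.757, adjusted p = 0.0631 by exact permutation) rested on those mice, since r was 0.0965 without them. Spearman's rho passed for 17 genes as well, though not for *Camk2a* or *Hs3st4* (adjusted p = 0.110 by exact permutation for each).

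Genes at the other end showed no such relation over all mice. *Rasgrf2* (r = 0.185), *Ddn* (0.0391), *Baiap2* (-0.0289), *Tle4* (-0.287) and *Cux1* (-0.427) had the lowest r, and none of these passed. Without KO replicates 2 and 4, however, r was 0.917 for *Rasgrf2*, -0.965 for *Ddn* and -0.797 for *Baiap2*. For *Tle4* and *Cux1* it was then -0.680 and -0.561. The r near 0 of *Rasgrf2*, *Ddn* and *Baiap2* over all mice thus rested on KO replicates 2 and 4. Taken as deviations from the mean of each genotype, 16 genes passed, and as deviations from the mean of each sex, 6. Leaving out each mouse in turn, the count was between 10 (without KO replicate 2) and 19, and it was 11 without WT replicate 2. Within the 5 females, r with *Slc17a7* had a median of 0.41 over the 30 genes. All genes of a mouse were read from 1 library of 1 dissected piece, which the points therefore share.

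**Figure D4:**
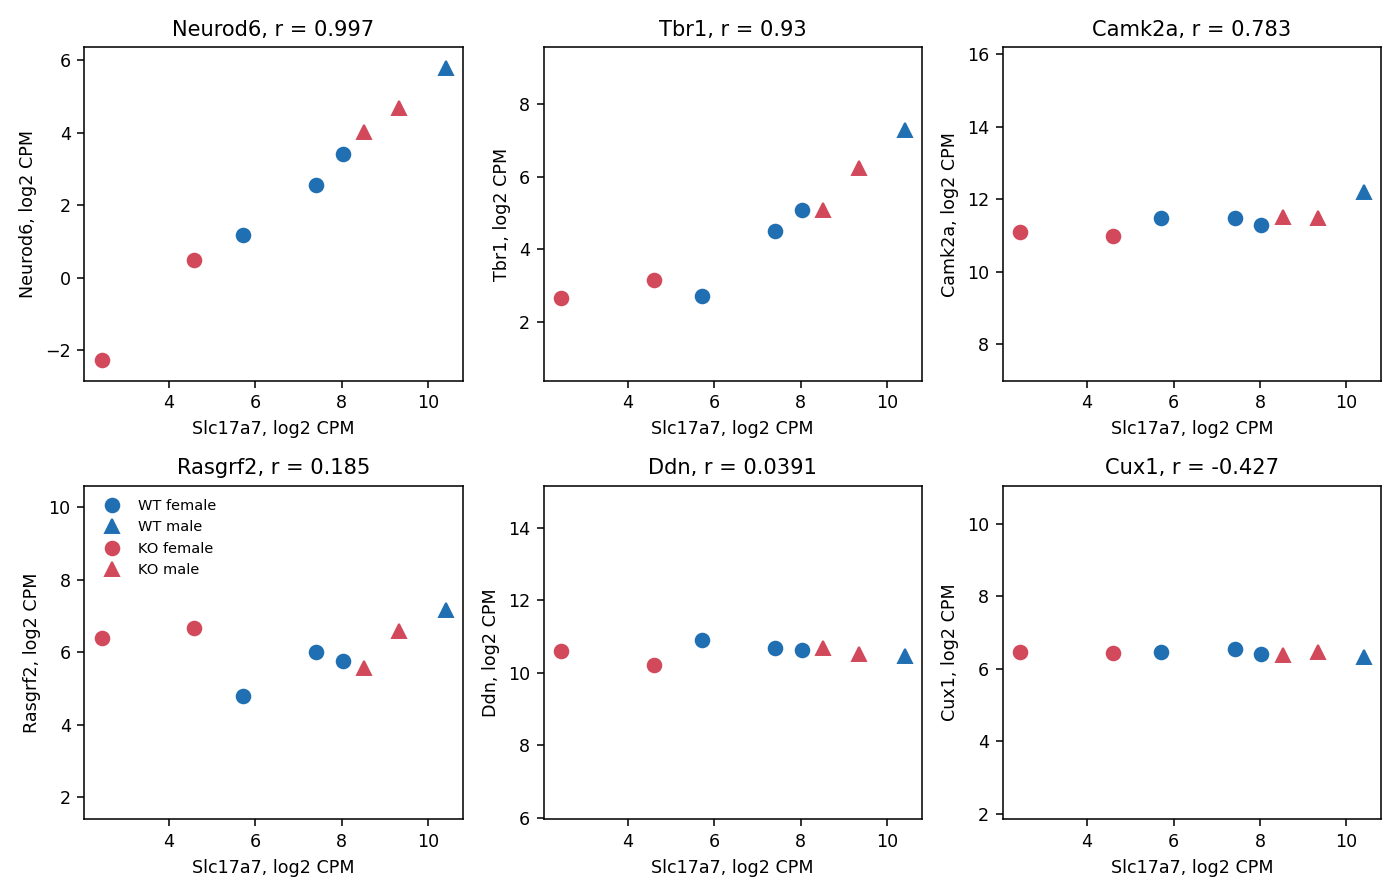
Log2 CPM of 6 genes against log2 CPM of *Slc17a7* in the 8 mice, on axes of the same span, with blue for WT, red for KO, circles for females and triangles for males. *Neurod6* lies on a line over all 8 mice, and *Tbr1* follows it with 3 low mice level. *Camk2a* is high only in WT replicate 2. *Rasgrf2*, *Ddn* and *Cux1* show little slope over all 8 mice.

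Among the other 17585 named genes compared, the 10 with the highest r to the mean log2 CPM of the 31 genes included *Vxn* (r = 0.996), *Arhgap25* (0.990), *Nav3*, *9130024F11Rik*, *Ipcef1*, *Cckbr*, *Lingo1* and *Fbxo34* (0.983), over 8 mice and with no test. *Cckbr*, a receptor for cholecystokinin, ran from 9.46 to 47.5 CPM, and *Vxn* from 36.1 to 469.7 CPM. Of the 10, 6 stand in the study's table, as do 8 of the 31 genes behind the mean. That overlap is therefore not independent, and the share over all genes compared was not computed. The 5 with the lowest r were *Ndufs5* (-0.983), *Smco4*, *Mum1l1*, *Phb* and *Tnfaip8l2* (-0.968), and *Ndufs5*, a subunit of mitochondrial complex I, ran from 39.3 to 59.1 CPM.

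A further list of 40 genes of cortical projection neurons, of which 39 were tested, was less uniform. For KO against WT, 30 were lower and 9 higher, with a median log2 fold change of -0.11, and 0 passed the adjusted threshold or an unadjusted p under 0.05 in edgeR. With sex as a covariate 0 passed the adjusted threshold in edgeR, and 14 had an unadjusted p under 0.05, 12 lower and 2 higher. Of all 17669 genes tested, 709 were lower and 519 higher at that threshold. Without the covariate, the genes nearest to the threshold were *Tcerg1l* with a log2 fold change of 0.52 (SE 0.27), *Kcnh3* with -0.29 (SE 0.16), *Tshz2* with 0.41 (SE 0.27) and *Nectin3* with -0.35 (SE 0.24). Between the sexes, 23 of the 39 were higher and 16 lower in males, with a median log2 fold change of 0.20. At an unadjusted p under 0.05 in edgeR, 13 were higher and 4 lower. Of all 17669 genes tested, 1687 were higher and 1117 lower at that threshold. At an adjusted p under 0.1 in edgeR, 9 were higher in males, where 2.87% of all genes were, and 0 were lower. Among the 9, *Igfn1*, *Rtn4rl2*, *Ccn3*, *Tnnc1*, *Cplx3*, *Stx1a*, *Sla* and *Nell2* were higher by between 3.79 and 0.63 on the log2 scale. *Cplx3*, a complexin of subplate neurons, and *Ccn3*, a matricellular protein of deep layer neurons, correlated with *Slc17a7* at r = 0.914 and 0.927 over the 8 mice. Over the whole list, however, r with *Slc17a7* ran from -0.610 (*Mdga1*) to 0.956 (*Rtn4rl2*).

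Markers of other cells moved between the same mice, and their part in the values above was not tested. The summed TPM of 20 genes of striatal medium spiny neurons was 7899, 3526, 8340 and 7327 in WT replicates 1 to 4 and 6969, 5004, 5503 and 7545 in KO replicates 1 to 4. The mouse with the highest cortical genes, WT replicate 2, was thus the lowest for striatal genes, and WT replicate 3, low for most cortical genes, was the highest. The sum over all 11 septal and hypothalamic genes, of which 8 were tested, was 46.2, 20.6, 30.5 and 261 TPM in WT. In KO it was 32.8, 1063, 50.9 and 179 TPM. KO replicate 2 stood apart from all others on that list, and 3 of its genes (*Hcrt*, *Agrp* and *Sim1*) were at 0 counts in at least 1 mouse.

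Pan-neuronal genes (12) summed to between 2911 and 6579 TPM in WT and between 3305 and 5020 TPM in KO, with WT replicate 2 highest. The 31 cortical genes summed to between 3710 and 9071 TPM in WT and between 2754 and 5239 TPM in KO. Genes of V-SVZ neuroblasts and progenitors (12), which mark the tissue named by the labels, were all detected in every mouse and summed to between 72.1 and 108 TPM. Ependymal genes (10) summed to between 37.3 and 53.1 TPM in males and between 43.1 and 91.2 TPM in females. All 8 choroid plexus genes, of which 7 were tested, summed to between 13.7 and 32.6 TPM in males. In females they summed to between 21.03 and 49.5 TPM. The means of log2 CPM given next are over the tested genes only. Genes of GABAergic interneurons (14), of oligodendrocytes (10), of astrocytes (10) and of hippocampal, claustral and thalamic neurons (12) spanned 0.64, 0.41, 0.37 and 0.74 in mean log2 CPM over the 8 mice. The span was 2.42 for the 31 cortical genes, 4.55 for the septal and hypothalamic, 1.90 for the choroid plexus, 1.63 for the striatal, 1.203 for the ependymal, 0.90 for the pan-neuronal and 0.52 for the V-SVZ list. For KO against WT, 0 genes of any of these 10 lists passed the adjusted threshold in edgeR or in DESeq2 without covariates, and at an unadjusted p under 0.05 edgeR gave 1 gene, in the astrocyte list, and DESeq2 3, 1 each in the astrocyte, oligodendrocyte and septal lists.

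**Figure D5:**
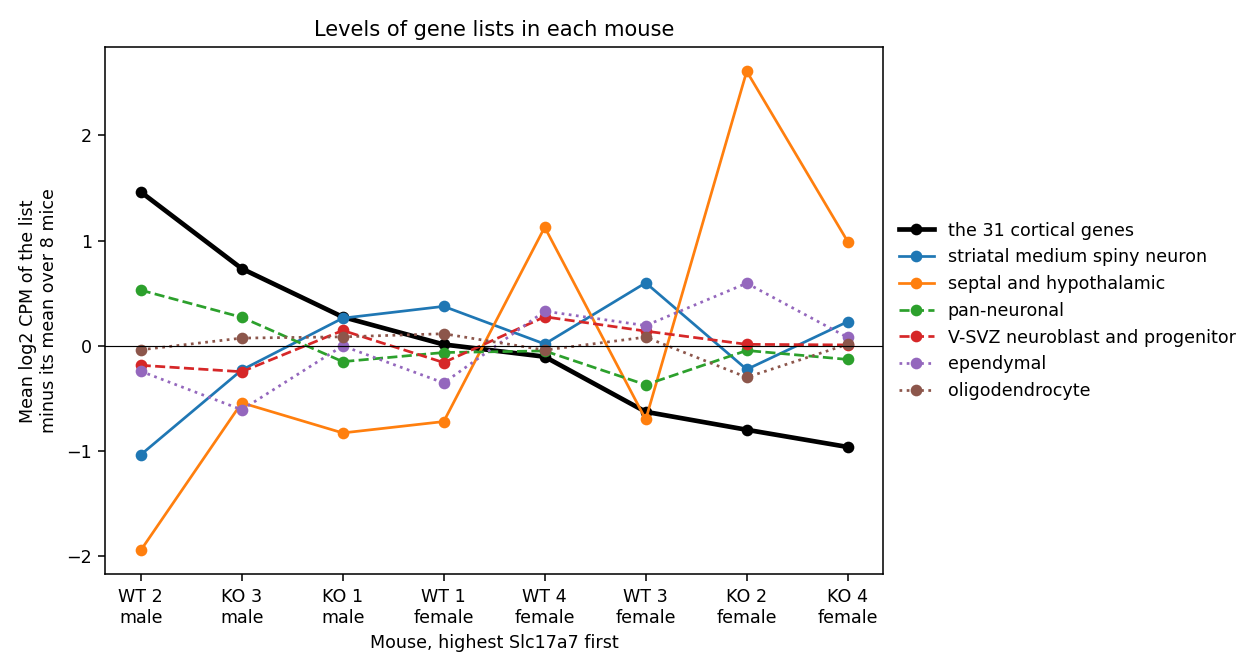
Mean log2 CPM of 7 gene lists, each minus its mean over the 8 mice, with mice ordered by *Slc17a7* and the sex of each under its name. The 31 cortical genes (black) run down from the WT male to KO replicate 4, the striatal list is lowest in the WT male, the septal and hypothalamic list is highest in KO replicate 2, and the V-SVZ and oligodendrocyte lists stay near 0.

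For 8 of the 31 genes a gene on the opposite strand overlaps in Gencode M21 (*Neurod1*, *Cux1*, *Cux2*, *Hs3st4*, *Sv2b*, *Slc30a3*, *Ddn* and *Chn1*), and for 3 (*Neurod1*, *Cux1* and *Hs3st4*) a gene on the same strand does. The strand setting of the counting was not given in the sources used here, so reads of these genes are less certain. The lowest estimated counts were small, with 5 for *Neurod1* in WT replicate 3 and 13 for *Neurod6* in KO replicate 4.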

How the data were processed

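The 8 libraries were of polyA RNA, 1 per mouse, and the replicates of a group were separate mice by the labels. The authors made FASTQ files with bcl2fastq 2.20 and ran Salmon against Gencode M29 (per the methods of the study). The deposited gene table holds estimated counts without normalization, and the deposited transcript files hold estimated counts and TPM as Salmon gave them. How transcripts were summed to genes, and the Salmon version, were not given in the sources used here. Each column was assigned to its mouse through the animal tag that its name carries.

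Estimated counts were rounded, filtered with filterByExpr, normalized by TMM and compared by edgeR 4.0.16 (R 4.3.3), whose quasi-likelihood test had no covariate, and p values were adjusted over 17669 genes (Benjamini-Hochberg, threshold 0.1). DESeq2 1.42.0 was an alternative. Per-mouse levels are TMM-normalized CPM, with a prior count of 2 on the log2 scale. TPM per gene was summed over transcripts through Gencode M21, which held at least 99.16% of the reads. Symbols matched 94.8% of the gene identifiers. Promoters came from RefSeq on GRCm38.p6, an older build than that of the counts, and 24 of the 31 genes had one. The tests were run first on simulated data. Alternatives were size factors, filters, sex as a covariate, a replicate block, females alone, and each mouse left out in turn.

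The 31 genes, the lists and the tests were chosen with earlier results of these data known. Full values per mouse are given for the layer genes, *Slc17a7*, *Camk2a*, *Nrgn* and any gene with a mouse far from its group, and the rest are given by range. Replicate numbers did not pair the mice, since deviations of same-numbered mice from their group means correlated at 0.075, -0.224, -0.224 and 0.266. Some genes that this rule would name are not reported here.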

Additional observations from a re-analysis of the deposited data

Results flagged for a closer look

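In 15 of 64 groups of 4 mice (the 31 genes and the difference of upper minus deep layer genes, in each genotype), 1 mouse lay farther from the others than Dixon's criterion at 95% allows. For the 31 genes the criterion was applied to CPM, not to the log2 CPM used for the correlations and the layer difference. CPM stretches high values more than log2 CPM does, and no share over all genes tested was computed. Chance gives about 1 in 20 for a single group. The 64 groups were read from the same 8 libraries and are not independent. That rate therefore gives no measure for their count. WT replicate 2 was that mouse in 14 of the 15.

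Among transcription factors, its level was 8.07 CPM for *Neurod1*, 77.0 CPM for *Neurod2*, 55.3 CPM for *Neurod6*, 17.5 CPM for *Emx1*, 21.5 CPM for *Fezf2*, 36.0 CPM for *Rorb*, 611 CPM for *Mef2c* and 39.1 CPM for *Bhlhe22*. The next WT mouse had 1.28, 12.4, 10.6, 1.80, 3.98, 17.5, 228 and 6.81 CPM for these genes in the same order. Among synaptic and secreted genes, its level was 1356 CPM for *Slc17a7*, 69.7 CPM for *Slc30a3*, 259 CPM for *Cck*, 347 CPM for *Nptx1*, 386 CPM for *Dkk3* and 4694 CPM for *Camk2a*, where the next WT mouse had 260.4, 9.54, 39.2, 92.5, 159 and 2847 CPM. The same mouse was the only WT male and had the lowest summed TPM of striatal genes (3526), and the part of either in these values was not tested.

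*Rprm* was the other case, at 34.4 CPM in KO replicate 3 against 19.6 CPM in the next KO mouse.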

How the results depend on the processing

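The count of 0 of 31 genes passing for KO against WT held under DESeq2 size factors, DESeq2, no filter, at least 10 counts in every mouse (30 genes, without *Neurod1*), an adjusted p of 0.05, sex as a covariate, females alone and each mouse left out. It became 8 under DESeq2 with sex, where 0.687% of all genes were called lower. It was between 0 and 1 in edgeR with sex and each mouse left out. The 1 was without WT replicate 3, where 2 of all 17979 genes were called lower. DESeq2 without sex gave no value for *Fezf2*. With a replicate block, which the numbers do not justify, 0 passed and the median was -0.25. Leaving out each mouse, the median ran from -0.50 to 0.27, with the positive value without WT replicate 2.

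The number of genes following *Slc17a7* (adjusted over the 30 alone) ran from 10 to 19 with each mouse left out, and was 6 on deviations from the mean of each sex. The number higher in males ran from 0 to 22 with each mouse left out, and was 0 without the genotype term. The difference of KO minus WT in upper minus deep layer genes ran from 0.14 to 0.45 with each mouse left out, and was 0.67 in females.

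The sign of single genes for KO over WT turned in these cases. With sex as a covariate, *Cux1* was 0.016, *Rorb* -0.059 and *Tle4* 0.025, and under DESeq2 with sex 0.013, -0.062 and 0.022. In females alone, *Cux2* was 0.36 and *Rprm* 0.24. With the replicate block, *Neurod1* was 0.27, *Cux2* 0.0069, *Tle4* 0.00033 and *Rprm* 0.092. With each mouse left out, log2 fold changes ran from -1.79 to 0.69 (*Slc17a7*), -1.43 to 1.43 (*Neurod1*), -1.995 to 0.70 (*Neurod2*), -1.66 to 0.79 (*Neurod6*), -2.37 to 0.91 (*Emx1*), -1.75 to 0.57 (*Tbr1*), -1.52 to 0.27 (*Fezf2*), -0.040 to 0.035 (*Cux1*), -0.52 to 0.43 (*Cux2*), -0.13 to 0.38 (*Rorb*), -0.65 to 0.041 (*Nrgn*), -0.54 to 0.35 (*Mef2c*), -0.49 to 0.077 (*Lamp5*), -0.10 to 0.75 (*Rasgrf2*), -0.10 to 0.080 (*Tle4*), -0.32 to 0.50 (*Rprm*), -1.72 to 0.70 (*Bhlhe22*), -0.99 to 0.37 (*Nptx1*), -1.56 to 0.72 (*Cck*), -2.24 to 0.68 (*Slc30a3*) and -0.48 to 0.15 (*Mpped1*). For males over females they ran from -0.39 to 0.93 (*Rasgrf2*), -0.25 to 0.070 (*Tle4*), -0.19 to 0.17 (*Baiap2*) and -0.14 to 0.17 (*Ddn*). The cause was not tested.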

Other observations

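The transcript files bear on which forms of the genes were read. In some of the 31 genes, 1 form held nearly all of the TPM in every mouse, as for *Slc17a7*, and *Neurod1*, *Neurod2*, *Neurod6*, *Hs3st4*, *Rprm*, *Bhlhe22*, *Nptx1*, *Itpka* and *Dkk3* had a single form in the annotation. The main form of *Cck* held between 65.8% and 93.0% of the TPM of the gene, and that of *Emx1* between 44.0% and 86.9%. The main form of *Cux1*, a gene of 14 annotated forms, held between 51.6% and 62.2%. These shares are Salmon estimates, and no comparison between genotypes was made on them.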
